A study of Mus musculus with 6 samples.

Results

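Phosphate transport and vitamin D genes were examined in RNA sequencing libraries of glomeruli, the filtering units of the kidney, from mice with the label diabetic kidney disease (DKD). The 10 genes, of 57132 gene rows in the count table, were the sodium-phosphate cotransporters Slc34a1, Slc34a3, Slc20a1 and Slc20a2, the vitamin D hydroxylases Cyp24a1 and Cyp27b1, the vitamin D receptor Vdr, klotho (Kl), the fibroblast growth factor receptor Fgfr1 and the parathyroid hormone receptor Pth1r. They were chosen by function with the genotype contrast of these same libraries already known. Their fold changes and adjusted p-values below therefore describe the fit across all genes and are no independent test of the genes. All 6 samples carried floxed Setdb2 alleles (Setdb2fl/fl) and DKD. The 3 samples labelled Cre-/Setdb2fl/fl (Cre_negative) lack the Cre recombinase and the 3 labelled Cre+/Setdb2fl/fl (Cre_positive) carry it. The series design concerns SETDB2 of podocytes, the epithelial cells around the glomerular capillaries. The Cre driver, the diabetes model, the strain, the age of the mice and any pooling of animals are not stated in the labels or design text used here. Nor do the labels tie each replicate to its own mouse; the p-values cover the spread between these samples only, and that spread may be technical.

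Phosphate balance is set largely in the proximal tubule, where NaPi-IIa (Slc34a1) and NaPi-IIc (Slc34a3) return filtered phosphate to the blood. The hormone FGF23, acting through FGF receptors with klotho as co-receptor, and parathyroid hormone, acting through its receptor, withdraw these transporters from the brush border. Both hormones also set the level of calcitriol, the active form of vitamin D, in opposite directions. Cyp27b1 makes calcitriol and Cyp24a1 starts its breakdown, and Cyp24a1 is itself a classical target that calcitriol induces through the vitamin D receptor.

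The libraries held 53571438 to 58807042 counts, and all 10 genes passed the filter on low counts, with 83 to 250401 counts per library. Podocyte markers were detected in every library, but tubule RNA was abundant: the summed CPM (gene counts scaled to a common library size, corrected by TMM factors) of 10 podocyte genes was 542 to 852, against 8571 to 12913 for 16 proximal tubule genes. Setdb2 had 591, 492 and 370 counts in Cre_negative and 427, 444 and 391 in Cre_positive replicates 1, 2 and 3, and its log2 fold change of -0.12 (SE 0.18) did not pass the threshold. These gene-level counts do not check the genotype labels, because the floxed stretch of the gene is not named in the labels. Cre_positive replicate 2 stood apart in Xist, with 24 counts against 36474 to 47632 in the other 5 libraries, so results without it are given below.

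The phosphate transporters did not move together in Cre_positive glomeruli. Slc34a3 and Slc34a1 were 3.30-fold and 1.53-fold higher, Slc20a1 was 1.61-fold lower, and Slc20a2 did not pass the threshold. Of the 10 genes, Slc34a1, Slc34a3 and Kl were called higher and Slc20a1 and Cyp24a1 lower at an adjusted p under 0.05 in edgeR's quasi-likelihood test. Over all 19927 genes tested, 7.55% were called, 3.73% higher and 3.82% lower, with a median log2 fold change of -0.00089. The median over the 10 genes was 0.076. The called genes were also the 5 whose CPM ranges did not overlap between genotypes, as held for 29.7% of all genes tested. Nothing is read from these shares, since this contrast was known when the genes were chosen. The number called was 4 without Cre_positive replicate 2, and 3 without Cre_positive replicate 1 or without replicate 3.

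**Figure D1:**
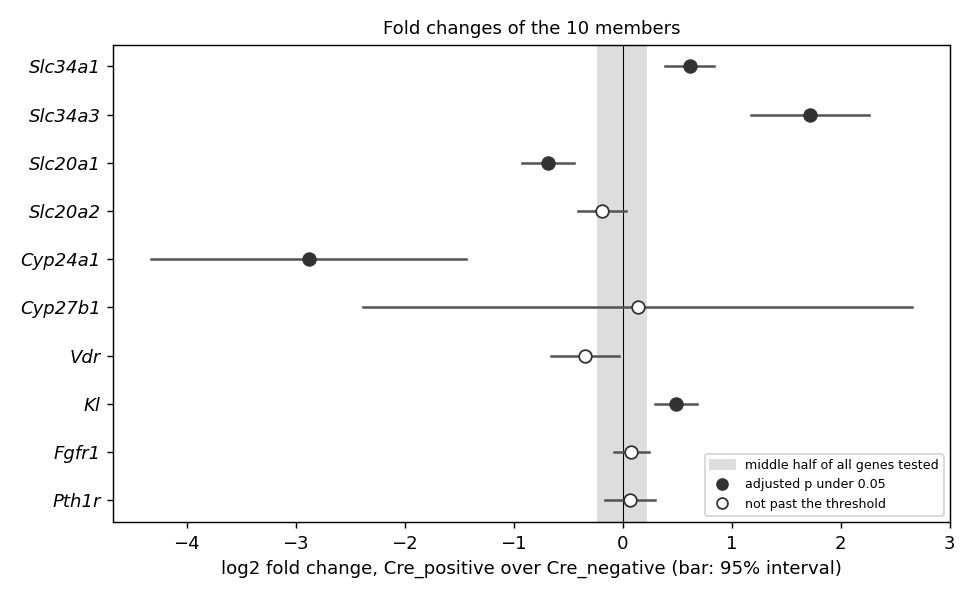
Log2 fold change of each gene, Cre_positive over Cre_negative, with its 95% interval (horizontal axis). Filled points passed an adjusted p of 0.05 and the grey band spans the quartiles of all 19927 genes tested, from -0.23 to 0.22. Cyp24a1 lies farthest to the left at -2.88 and Slc34a3 farthest to the right at 1.72, and the interval of Cyp27b1 runs from -2.38 to 2.65.

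The sequences before the start sites of the 3 transporters that were called are shown because these genes serve the same transport and were called in opposite directions. RefSeq's promoter table (build GRCm38.p6) held 7 of the 10 genes: Slc34a1, Slc34a3, Slc20a1, Cyp27b1, Vdr, Kl and Pth1r. Each line gives the 250 bases before the annotated start, 5′ to 3′ on the gene's strand. Capitals mark any of 5 motifs of 6 letters, searched on both strands: AGGTCA, a motif bound by nuclear receptors; GGTTCA, a variant in vitamin D response elements; GTTAAT, part of the HNF1 motif; TATAAA, the TATA box; and CACGTG, the E-box. The windows lie at chr13:55399398-55399647 (plus strand) for Slc34a1, chr2:25234235-25234484 (minus strand) for Slc34a3 and chr2:129198523-129198772 (plus strand) for the upstream start of Slc20a1.
Slc34a1: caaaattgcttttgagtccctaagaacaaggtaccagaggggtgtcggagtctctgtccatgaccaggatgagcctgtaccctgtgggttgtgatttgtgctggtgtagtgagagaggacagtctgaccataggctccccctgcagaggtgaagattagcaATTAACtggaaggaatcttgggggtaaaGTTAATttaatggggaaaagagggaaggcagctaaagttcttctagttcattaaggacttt
Slc34a3: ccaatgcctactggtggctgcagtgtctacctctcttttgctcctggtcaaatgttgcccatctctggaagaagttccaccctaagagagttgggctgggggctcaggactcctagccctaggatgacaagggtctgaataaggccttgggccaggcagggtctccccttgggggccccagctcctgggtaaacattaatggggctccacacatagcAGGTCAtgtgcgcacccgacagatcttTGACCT
Slc20a1: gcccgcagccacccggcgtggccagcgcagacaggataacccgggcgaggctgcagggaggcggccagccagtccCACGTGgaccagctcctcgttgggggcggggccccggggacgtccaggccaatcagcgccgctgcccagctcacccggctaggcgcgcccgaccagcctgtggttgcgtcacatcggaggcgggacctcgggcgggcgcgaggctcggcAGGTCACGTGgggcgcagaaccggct

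No searched motif was in all 3 windows. Slc34a1 held GTTAAT on each strand, beginning 89 and 61 bases before the start, a match that 6.43% of all 32851 windows in the table contain. Slc34a3 held AGGTCA on each strand, 33 and 6 bases before the start, which 14.0% of windows contain. Slc20a1 held CACGTG at 175 and 22 bases and AGGTCA at 26 bases, the last of these overlapping the second CACGTG, and 6.02% of windows contain CACGTG. None of the 3 held GGTTCA, which 8.85% of windows contain, or TATAAA, which 12.4% contain. The windows were 46.4%, 56.4% and 75.2% G or C in Slc34a1, Slc34a3 and Slc20a1. The bases that follow the Slc34a1 start in this table were not found as an unbroken stretch in the GENCODE M21 transcripts of the gene. Its start may therefore differ between annotations, although positions were not compared. A match describes letters only, and the absence of one says nothing about a factor.

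Slc34a1 encodes NaPi-IIa, the main phosphate transporter of the mouse proximal tubule. Cre_negative replicates 1, 2 and 3 had 2738, 3194 and 2769 CPM, and the Cre_positive replicates had 4377, 4290 and 4666 CPM. The means were 2900.3 ± 255 and 4445 ± 197 CPM (SD, n = 3). Every Cre_positive library lay above every Cre_negative one. The log2 fold change was 0.62 (SE 0.0996, 95% interval 0.39 to 0.84, adjusted p = 0.00909). Without Cre_positive replicate 3 the adjusted p was 0.0605 at a log2 fold change of 0.58, and without replicates 1 and 2 it was 0.0393 and 0.0427.

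Slc34a3 encodes NaPi-IIc, whose human counterpart is mutated in hereditary hypophosphataemic rickets with hypercalciuria. It had 23.4, 23.4 and 40.9 CPM in the Cre_negative libraries and 96.1, 91.8 and 101 CPM in the Cre_positive ones. The Cre_positive values were close to each other, and Cre_negative replicate 3 was the highest of its group but far below them. The means were 29.2 ± 10.1 and 96.3 ± 4.63 CPM (SD, n = 3), and the log2 fold change was 1.72 (SE 0.23, 95% interval 1.18 to 2.26, adjusted p = 0.00866). It passed at 0.05 under all 15 other settings, with log2 fold changes from 1.58 to 2.04.

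Slc20a1 and Slc20a2 encode PiT1 and PiT2, transporters that most cell types use to take up phosphate. Slc20a1 had 71.9, 72.9 and 57.4 CPM in the Cre_negative libraries and 43.9, 38.4 and 43.5 CPM in the Cre_positive ones. The groups did not overlap, and the log2 fold change was -0.69 (SE 0.11, 95% interval -0.93 to -0.44, adjusted p = 0.00769). It passed under all 15 other settings, between -0.79 and -0.63. Slc20a2 had 78.0, 59.8 and 67.5 CPM against 57.8, 61.7 and 60.4 CPM. These ranges overlapped, and its log2 fold change of -0.19 (SE 0.098, 95% interval -0.41 to 0.03) did not pass (adjusted p = 0.288).

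**Figure D2:**
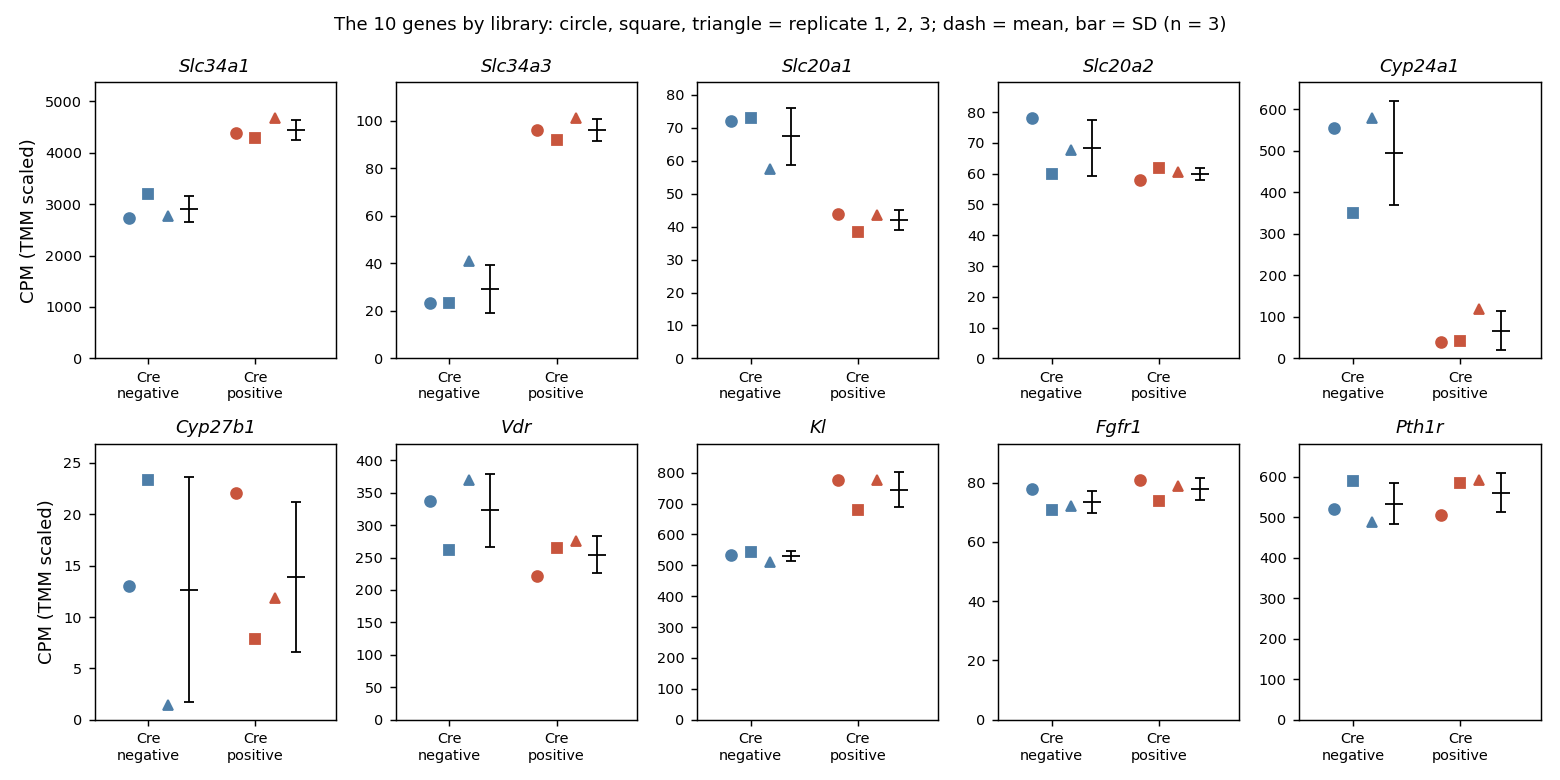
CPM of the 10 genes by library (vertical axes from 0, 1 panel per gene), with Cre_negative libraries in blue, Cre_positive in red and the mean ± SD (n = 3) beside each group. The groups are apart for Slc34a1, Slc34a3, Slc20a1, Cyp24a1 and Kl, and the Cyp27b1 panel shows Cre_negative replicate 3 at 1.47 CPM.

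Set against each other per kilobase of annotated exon, the 4 transporters were led by Slc34a1 in both genotypes. Slc34a1 took 94.5% ± 0.804 of their summed CPM per kb in Cre_negative and 94.2% ± 0.0654 in Cre_positive libraries (SD, n = 3). Slc34a3 went from 1.91% ± 0.736 to 4.05% ± 0.0508 of the sum, and Slc20a1 from 1.84% ± 0.223 to 0.745% ± 0.0426. The share of Slc20a2 was 1.70% ± 0.339 and 0.958% ± 0.0544. Slc34a1 exceeded Slc34a3 per kb by 59.1, 68.9 and 34.1 times in the Cre_negative libraries and by 23.0, 23.6 and 23.3 times in the Cre_positive ones. These within-library ratios do not depend on how libraries are scaled to each other. The Cre_positive ratios were nearly equal, while Cre_negative replicate 3 stood nearest to them.

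Both brush border transporters rose in libraries in which the summed CPM of proximal tubule markers was also higher. Of the 16 proximal tubule markers, 5 rose, 0 fell and 11 did not pass, none was at 0 in any library, and their summed CPM was 8571 to 9901 in Cre_negative and 11811 to 12913 in Cre_positive libraries. Relative to that sum, Slc34a1 stood at 32.0%, 32.3% and 29.6% in Cre_negative and 37.1%, 35.6% and 36.1% in Cre_positive libraries, so the groups remained apart, with a ratio of means of 1.16. Slc34a3 stood at 0.273%, 0.236% and 0.437% against 0.814%, 0.761% and 0.782%, a ratio of means of 2.49. The 5 markers that rose did so by 1.71-fold (Miox) to 1.86-fold (Slc7a7), above Slc34a1 (1.53-fold) and below Slc34a3 (3.30-fold). These differences were not tested. The 11 markers that did not pass ran from 0.613-fold (Slc22a6) to 6.26-fold (Slc7a13). Of these, the organic anion transporter Slc22a6 was lower with no overlap (log2 fold change -0.71, adjusted p = 0.0553). Slc13a3 (0.890-fold) and Fbp1 (0.943-fold) were also below 1, with overlap, and the rest of the 16 were above 1. Lrp2 and Miox, both called, had the highest mean CPM of the 16. Lrp2 went from 1289 to 2286 CPM and Miox from 1066 to 1819 CPM, so the sum depends much on them. Sums of other markers were higher too. Those of 8 glomerular endothelial genes (6 rose, 0 fell) were 552 to 674 CPM in Cre_negative and 824 to 894 CPM in Cre_positive libraries. The 10 podocyte genes (3 rose, 0 fell) summed to 542 to 626 CPM and 744 to 852 CPM, also with no overlap. The 8 mesangial and smooth muscle genes (3 rose, 0 fell) summed to 342 to 447 and 499.8 to 532 CPM, and 6 red blood cell genes (1 rose, 0 fell) to 125 to 282 and 332 to 684 CPM. The red blood cell gene that rose, Slc4a1, is also in the list of later tubule segments given below. No haemoglobin gene passed, nor did Alas2. Hba-a1, Hba-a2 and Alas2 were higher with no overlap, while Hbb-bs and Hbb-bt overlapped between genotypes. The part of tubule or other cell content in these values was not tested further. In such bulk samples, more cells of a type and more RNA per cell cannot be told apart. Podocyte markers relative to the proximal tubule sum overlapped between genotypes, at 5.78% to 7.30% and 6.30% to 6.71%.

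**Figure D3:**
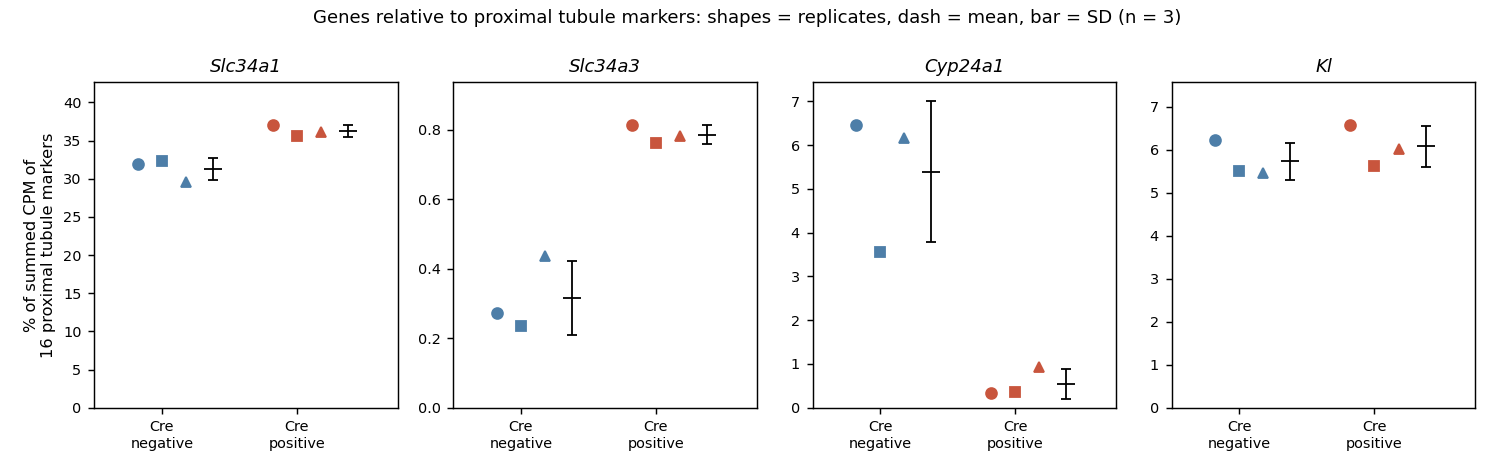
CPM of Slc34a1, Slc34a3, Cyp24a1 and Kl as a percentage of the summed CPM of 16 proximal tubule markers in the same library (vertical axes from 0), with mean ± SD (n = 3). Slc34a1 and Slc34a3 remain apart between genotypes, Cyp24a1 goes from 5.39% to 0.537% on average, and the Kl values overlap.

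The calcitriol-degrading enzyme Cyp24a1 showed the largest difference of the 10 genes, and Cyp27b1, which makes the hormone, showed none that could be told from the spread. Cyp24a1 had 33645, 19629 and 32533 counts in the Cre_negative libraries, or 554, 351 and 578 CPM. Cre_positive libraries held 2066, 2430 and 6441 counts, which is 38.7, 42.7 and 120.0 CPM. Cre_positive replicate 3 was the highest of its group and still below every Cre_negative library. The means of 494 ± 125 and 67.1 ± 45.8 CPM (SD, n = 3) corresponded to a 7.36-fold lower level, or -2.88 on the log2 scale (SE 0.56, 95% interval -4.32 to -1.44). The adjusted p of 0.0496 was close to the threshold.

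That call did not hold under every setting, although the direction did. Leaving out any 1 of the Cre_negative libraries (adjusted p = 0.152, 0.0990 and 0.0896 without replicates 1, 2 and 3), Cre_positive replicate 1 (0.0965) or Cre_positive replicate 2 (0.119) ended it. So did testing every gene with a count (0.101). Without Cre_positive replicate 3 the log2 fold change was -3.60 with an adjusted p of 0.00208. DESeq2 gave an adjusted p of 4.95e-05, limma voom 0.00551 and edgeR with robust=FALSE 0.00905. The log2 fold change stayed between -3.60 and -2.60 over all 15 other settings.

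Cyp27b1 had the lowest mean CPM of the 10 genes in both genotypes and was uneven between libraries. Cre_negative libraries held 794, 1306 and 83 counts, which is 13.1, 23.4 and 1.47 CPM. Cre_positive libraries held 1176, 447 and 634 counts, which is 22.1, 7.85 and 11.8 CPM. Cre_negative replicates 2 and 3 bracketed all other libraries. The log2 fold change was 0.14 (SE 0.98), and its 95% interval allows a level between 0.192 and 6.30 times that of Cre_negative. The adjusted p was 0.954. The sign turned without Cre_negative replicate 3 (-0.39) and without Cre_positive replicate 1 (-0.36).

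Within each library, Cyp24a1 exceeded Cyp27b1 per kb by 30.6, 10.9 and 283 times in Cre_negative and by 1.27, 3.93 and 7.35 times in Cre_positive replicates 1, 2 and 3. The groups did not overlap, but the Cre_negative ratios spread widely because replicate 3 had little Cyp27b1. Relative to the vitamin D receptor gene Vdr, Cyp24a1 stood at 2.61, 2.14 and 2.48 against 0.277, 0.255 and 0.691 per kb. This ratio was tight in Cre_negative libraries.

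**Figure D4:**
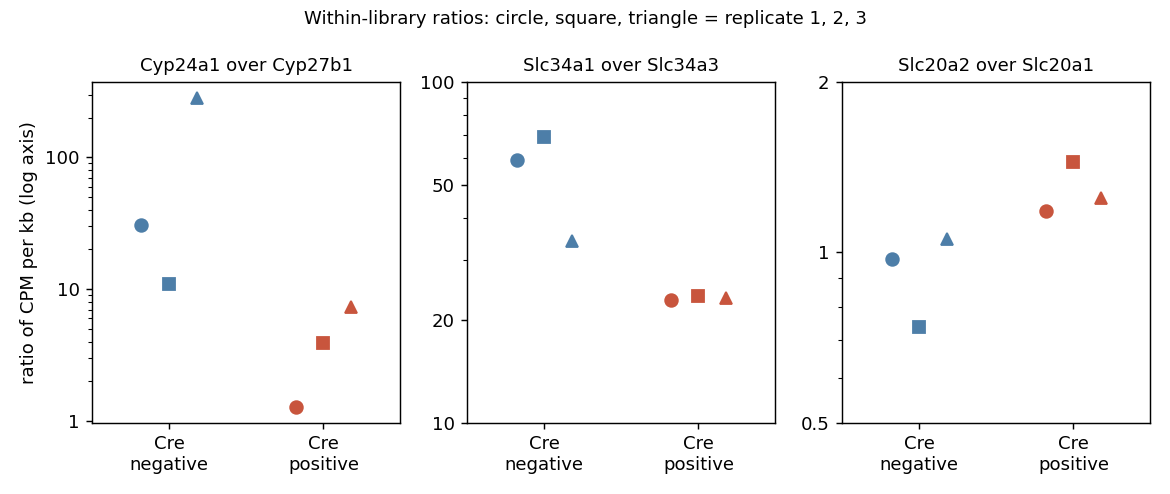
Ratios of CPM per kb within each library for 3 pairs of genes (vertical log axes, shapes for replicates 1 to 3, Cre_negative in blue and Cre_positive in red). The Cyp24a1 to Cyp27b1 ratio runs from 10.9 to 283 in Cre_negative and from 1.27 to 7.35 in Cre_positive libraries, and the Slc34a1 to Slc34a3 ratio lies between 23.0 and 23.6 in all Cre_positive libraries.

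Between genotypes, Cyp24a1 was lower, as the markers of injured tubule were, while the sum of proximal tubule markers was higher. The 8 injury genes, which include Havcr1 and Krt20, summed to 3635 to 10814 CPM in Cre_negative and 1659 to 1912 CPM in Cre_positive libraries; 5 fell, 0 rose, 3 did not pass and none was at 0. Spp1 made up most of that sum, with 10031, 4955 and 3314 CPM in Cre_negative replicates 1, 2 and 3, and did not itself pass. Within the Cre_negative libraries the pattern was mixed. The sum, Spp1, Havcr1, Lcn2, Krt20 and Cdkn1a were lowest in replicate 3, where Cyp24a1 was highest. Vcam1, Sox9 and Timp1 were lowest in replicate 2, as Cyp24a1 was. Relative to the proximal tubule marker sum, Cyp24a1 stood at 6.46%, 3.55% and 6.17% in Cre_negative and 0.328%, 0.354% and 0.930% in Cre_positive libraries. The 8 macrophage markers overlapped between genotypes in their sum (171 to 314 and 170.4 to 185 CPM), with 1 lower and 7 not passing. Csf1r, the marker with the highest CPM, was 80.5 and 91.0 CPM on average in Cre_negative and Cre_positive libraries, while the other 7 had lower means in Cre_positive (list median of the log2 fold change -0.89). Of the 8, 3 (C1qb, C1qc and Lyz2) were lower with no overlap. Among all genes tested, 29.7% did not overlap in either direction, so nothing is read from that count. An unadjusted p under 0.05 held for 6 of the 8. The share over all genes at that level was not taken, so nothing is read from that count either. The part of injury or of immune cells in the Cyp24a1 value was not tested.

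Of the receptor genes Vdr, Kl, Fgfr1 and Pth1r, only Kl was called. Kl encodes the co-receptor of FGF23 and is known from the distal convoluted tubule and the proximal tubule. It had 533, 545 and 512 CPM in the Cre_negative libraries and 777, 679 and 776 CPM in the Cre_positive ones, and its log2 fold change was 0.49 (SE 0.085, 95% interval 0.30 to 0.68, adjusted p = 0.0122). The genotypes were thus fully apart. The call ended without Cre_positive replicate 1 (adjusted p = 0.0581) and without replicate 3 (0.0716), and held without replicate 2 (0.0261).

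Kl overlapped between genotypes once set against tubule markers. As a share of the proximal tubule marker sum it was 6.22%, 5.50% and 5.47% in Cre_negative and 6.58%, 5.63% and 6.01% in Cre_positive libraries. Against 10 markers of the segments after the proximal tubule, from the loop to the collecting duct, it was 8.59%, 8.23% and 6.75%, and 7.93%, 6.68% and 7.45%. Of those 10 markers 5 rose, 0 fell, 5 did not pass and none was at 0. They summed to 6202 to 7583 CPM in Cre_negative and 9801 to 10416 CPM in Cre_positive libraries. Umod had the highest mean CPM of the 10 in both genotypes. It went from 2518 to 4984 CPM, so this sum depends much on it. The part of tubule content in the Kl value was not tested.

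Vdr, the nuclear receptor for calcitriol, had 337, 261 and 370 CPM in the Cre_negative libraries and 222, 265 and 276 CPM in the Cre_positive ones. Cre_negative replicate 2 lay among the Cre_positive values. The log2 fold change of -0.34 (SE 0.14, 95% interval -0.66 to -0.03) did not pass (adjusted p = 0.176), except without Cre_negative replicate 2, where it was -0.48 (adjusted p = 0.0458). That library also had the lowest Cyp24a1 of its group.

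Fgfr1, a receptor that klotho turns into an FGF23 receptor, had 77.8, 70.8 and 72.1 CPM against 80.9, 73.7 and 78.7 CPM. Its log2 fold change was 0.08 (SE 0.071, adjusted p = 0.559), and the 95% interval allows 0.945 to 1.18 times the Cre_negative level. Pth1r, the receptor of parathyroid hormone in the tubule, had 521, 590 and 489 CPM against 505, 583 and 592 CPM. Its log2 fold change was 0.07 (SE 0.10, adjusted p = 0.732), with an interval of 0.896 to 1.23 times. For both genes the libraries of the genotypes overlapped, and the intervals leave out a change as large as that of Slc34a1.

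Ordered by CPM per kb in Cre_negative libraries, Slc34a1 (620 ± 54.5) was followed by Pth1r (182 ± 17.6) and Cyp24a1 (139 ± 35.0), then by Vdr (57.1 ± 9.89) and Kl (56.8 ± 1.76; all SD, n = 3). Pth1r and Cyp24a1 were neighbours whose ranges did not overlap there, and Vdr and Kl did not differ beyond their spread. Below them, Slc34a3 (12.4 ± 4.30), Slc20a1 (12.1 ± 1.56) and Slc20a2 (11.0 ± 1.47) overlapped, followed by Fgfr1 (7.45 ± 0.375). Cyp27b1 (4.91 ± 4.26) spanned the values of its neighbours. In Cre_positive libraries Slc34a1 (951 ± 42.1) and Pth1r (192 ± 16.5) still led, but Kl (79.8 ± 6.04), Vdr (45.0 ± 5.06) and Slc34a3 (40.8 ± 1.97) now stood above Cyp24a1 (18.9 ± 12.9). Slc20a2 (9.65 ± 0.320), Fgfr1 (7.88 ± 0.373), Slc20a1 (7.51 ± 0.553) and Cyp27b1 (5.40 ± 2.85) came last. Averaged over all 6 libraries, Cyp27b1 exceeded 59.7% of the 19321 tested genes with an annotated length, and Slc34a1 99.8%.

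In the count table the called genes are ENSMUSG00000021490 (Slc34a1, chromosome 13), ENSMUSG00000006469 (Slc34a3, chromosome 2), ENSMUSG00000027397 (Slc20a1, chromosome 2), ENSMUSG00000038567 (Cyp24a1, chromosome 2) and ENSMUSG00000058488 (Kl, chromosome 5). Some of these counts share bases with genes on the opposite strand, and the strand setting of the counting is not given. In the GENCODE M21 annotation, Slc34a1 exons overlap those of Pfn3 by 545 of 4676 bases and Slc20a1 exons overlap opposite-strand genes by 732 of 5580. The overlap is 83 of 3560 bases for Cyp24a1, with Pfdn4, and 0 for Slc34a3, Cyp27b1, Vdr and Kl. Reads from such stretches cannot be assigned if strand was not used.

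The genes whose values followed those of Cyp24a1, Cyp27b1 and Slc34a1 most closely were found by Pearson's r of log2 CPM over the 6 libraries, among 12782 genes. These r describe 6 points that fall into the genotype groups. For Cyp24a1 they were BC023105 (r = 0.998), Enc1 (0.994) and Vapa (0.989), and 100 genes exceeded 0.95. For Slc34a1 they were Cmtm8 (0.998), Fmo2 (0.997) and Adamts15 (0.995), with 199 genes above 0.95. For Cyp27b1 they were Gps1 (0.998), Zc3h14 (0.980) and Taco1 (0.977), with 12 above 0.95. Cyp27b1 thus had the fewest close followers of the 3. Genotype means were not removed first, so these counts depend on how far each gene differed between genotypes, and nothing further is read from them.

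The other genes of these pathways were taken as 6 lists of 77 genes, of which 69 were tested, 7 rose, 4 fell and 58 did not pass. The share called was 15.9%, against 7.55% of all genes tested, with a median log2 fold change of 0.048 against -0.00089. The lists were drawn up with earlier results of these libraries known, so their counts are a description.

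Among 15 genes of phosphate transport and handling, Enpp1 rose, Stc1 fell and 13 did not pass (median -0.06). Enpp1 makes the mineralization inhibitor pyrophosphate and went from 42.8 ± 5.80 to 59.3 ± 0.829 CPM, which is 0.47 on the log2 scale (SE 0.099, adjusted p = 0.0248). Stc1 encodes the secreted hormone stanniocalcin 1, known for roles in calcium and phosphate handling, and went from 12.1 ± 3.58 to 5.05 ± 1.08 CPM, or -1.26 (SE 0.25, adjusted p = 0.0187). The Enpp1 call ended without Cre_negative replicate 1 or 2 or any 1 Cre_positive library (adjusted p up to 0.0919), and the Stc1 call without Cre_positive replicate 2 or 3 (up to 0.0893). The list's count was 5 without Cre_negative replicate 3, 1 without Cre_positive replicate 1, 0 without Cre_positive replicate 2 or 3, and 7 with DESeq2. Named after their values were seen, Stc2 stood at 2.04 (SE 0.55, adjusted p = 0.101) and the third NaPi-II gene, Slc34a2, at -1.44 (SE 0.39, adjusted p = 0.0788), neither past the threshold. Stc2 passed with DESeq2 (adjusted p = 0.00655), limma voom (0.0233), robust=FALSE (0.0305) and without Cre_negative replicate 3 (0.0110). Slc34a2 passed with DESeq2 (0.0197), robust=FALSE (0.0491) and without Cre_negative replicate 1 (0.0325) or 3 (0.0217).

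In the list of FGF23 and parathyroid hormone signalling, 10 of 17 genes were tested, Casr rose and 9 did not pass (median 0.10). Casr, the calcium-sensing receptor, had 44.6, 40.9 and 39.9 CPM in the Cre_negative libraries and 70.5, 74.1 and 75.0 CPM in the Cre_positive ones. The values within a genotype were close, and the log2 fold change was 0.81 (SE 0.074, adjusted p = 0.000697), past 0.05 under all 15 other settings. Summed markers of the later tubule segments were also higher in Cre_positive libraries, and the part of cell content in the Casr value was not tested. The hormone genes Fgf23 and Pth, and Dmp1, had 0 counts in all 6 libraries, where 0 allows up to 3 counts per library from counting error alone. The list's count was 2 without Cre_negative replicate 3. Among 10 feedback genes that FGF receptors induce, Spry1 rose, Etv4 fell and 8 did not pass (median -0.16). The signalling inhibitor Spry1 changed by 0.50 (SE 0.10, adjusted p = 0.0225) and the transcription factor Etv4, from 5.24 ± 2.00 to 1.24 ± 0.342 CPM, by -2.07 (SE 0.35, adjusted p = 0.0108). Both calls ended without Cre_positive replicate 3 (adjusted p = 0.0792 and 0.0637), and that of Spry1 also without replicate 2 (0.0840). The count of this list was 0 without Cre_positive replicate 3.

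Vitamin D reaches the proximal tubule bound to its carrier protein, which megalin and cubilin take up from the filtrate. Of 13 genes of vitamin D synthesis and uptake, 12 were tested, 3 rose, 1 fell and 8 did not pass (median 0.06). Gc, the vitamin D binding protein, a plasma protein made mainly by the liver, had 45720, 36615 and 25546 counts in the Cre_negative libraries and 3435, 3130 and 5064 in the Cre_positive ones. That is 621 ± 152 against 71.2 ± 20.6 CPM (SD, n = 3), an 8.71-fold lower level, which is -3.12 on the log2 scale (SE 0.27, adjusted p = 0.00214). It was past 0.05 under all 15 other settings. The fall of Gc was thus of a size like that of Cyp24a1, although their difference was not tested. The megalin gene Lrp2 changed by 0.83 (SE 0.091, adjusted p = 0.00179), the receptor-associated chaperone Lrpap1 by 0.40 (SE 0.077, adjusted p = 0.0186) and the endocytic adaptor Dab2 by 0.36 (SE 0.089, adjusted p = 0.0442). The calls of Lrpap1 and Dab2 ended whichever Cre_positive library was left out (adjusted p up to 0.0861 and 0.174), and that of Dab2 without Cre_negative replicate 2 (0.0998). This list's count was 2 without any 1 of the Cre_positive libraries. Lrp2 is also in the list of proximal tubule markers.

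None of 10 partners of the vitamin D receptor, such as the retinoid X receptors and co-activators, passed in edgeR's quasi-likelihood test (median 0.09). Rxra, with the smallest p, stood at 0.18 (SE 0.066, adjusted p = 0.144). At an unadjusted p under 0.05 the count was 1, and the share over all genes at that level was not taken. DESeq2 called 0 of them, and 1 was called without Cre_negative replicate 3. Of 12 genes of vitamin D responsive calcium transport, Calb1 rose, Trpv6 fell and 10 did not pass (median 0.08). Calb1, the calbindin of the distal tubule, went from 372 ± 35.3 to 528 ± 73.7 CPM, or 0.50 (SE 0.12, adjusted p = 0.0355). Trpv6, an epithelial calcium channel that calcitriol induces, went from 5.32 ± 1.49 to 2.28 ± 0.454 CPM, or -1.22 (SE 0.27, adjusted p = 0.0275). The Trpv6 call ended without Cre_negative replicate 1 or any 1 Cre_positive library (adjusted p up to 0.119), and the Calb1 call without any 1 library other than Cre_positive replicate 2 (up to 0.115). The count of this list was 1 without Cre_negative replicate 1 or Cre_positive replicate 2, 0 without Cre_positive replicate 1 or 3, and 4 with DESeq2. Calb1 is also one of the 10 markers of the later tubule segments, whose sum was higher in Cre_positive libraries, and the part of those segments in its value was not tested.

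**Figure D5:**
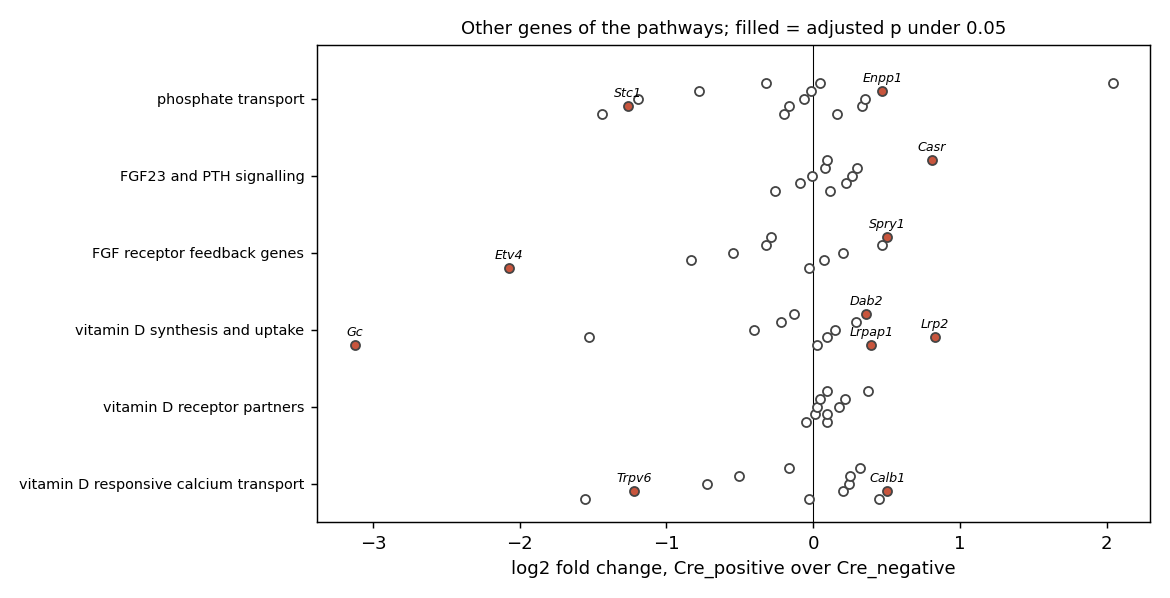
Log2 fold changes, Cre_positive over Cre_negative (horizontal axis), of the 69 tested genes in the 6 lists (1 row per list, points spread vertically only for legibility). Filled points passed an adjusted p of 0.05 and are named; Gc lies farthest to the left at -3.12, and Casr and Lrp2 are the named genes farthest to the right at 0.81 and 0.83.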

How the data were processed

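Per the labels' protocols, polyadenylated RNA from glomeruli was made into strand-marked libraries and sequenced as read pairs. Tools named in the submitters' processing notes are edgeR, StringTie, HISAT2 and fastp, with the build GRCm39 and no versions or roles. The authors deposited 1 table of whole-number counts per Ensembl gene; for the annotation, the strand setting and reads with several matches, the method is not given in these sources. Counts derived from coverage, or of reads matched to several genes, would be less exact.

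Symbols matched 51880 of 57132 rows and all 10 genes. R 4.3.3 and edgeR 4.0.16 were used: filterByExpr, TMM, glmQLFit (robust=TRUE), glmQLFTest and Benjamini-Hochberg adjustment over 19927 genes (threshold 0.05). The common dispersion corresponded to a coefficient of variation of 21.5%. SE is the log2 fold change over the square root of F, and intervals are at 95%. CPM per kb uses GENCODE M21 exon lengths (GRCm38, names and lengths only). The fit was tested on simulated data. No pair of libraries agreed within sampling noise (chi-square per degree of freedom 20.6 or more). Other settings used DESeq2 1.42.0 and limma 3.58.1. The 10 genes, the lists and the naming rule (all 10, up to 4 called genes per list or else the smallest p, 3 most alike genes) were chosen with earlier results of these data known.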

Additional observations from a re-analysis of the deposited data

How the results depend on the processing

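Over 15 other settings, Slc34a3 and Slc20a1 kept their direction and their call, and Slc34a1, Cyp24a1 and Kl kept their direction. The number of the 10 genes called (5) was 3 at a threshold of 0.01 and 3 to 5 when 1 library was left out. The count over all genes (1505) was 2568 with DESeq2, 414 at a threshold of 0.01 and 462 to 2039 when 1 library was left out; it was 700, 605 and 462 without Cre_positive replicates 1, 2 and 3, where fewer samples were tested. Cyp27b1 reversed to -0.39 without Cre_negative replicate 3 and to -0.36 without Cre_positive replicate 1; its range was -0.39 to 0.93. No scaling moved the median of all genes by over 0.01. With a replicate block, 1541 genes and 5 of the 10 were called, and the phosphate transport list had 4 calls against 2; of the 10 genes and the named pathway genes, only Stc2 changed sides (adjusted p = 0.0301 with the block). Same-numbered libraries correlated by only 0.055, 0.055 and 0.017 in their deviations, although each correlated best with its own number, so the numbers were not taken as pairs. The spread between libraries, more than depth, limits Cyp27b1, whose counts ran from 83 to 1306.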
